A study of Homo sapiens with 12 samples.

Results

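Untreated A375 cells were set against untreated A2058 cells. Both are established human melanoma cell lines, and the 6 arrays used were those whose titles name A375 or A2058 with DMSO, 3 for each line, out of 12 arrays in the series. A375 DMSO (called A375p in the source name) and A2058 DMSO are both labelled BRAF (V600E), a mutation of a kinase that drives the RAS-ERK growth pathway. "Untreated" here means exposed to DMSO, the solvent of the BRAF inhibitor vemurafenib, in the volume that accompanied 1 µM vemurafenib over 72 h with renewal every 24 h. The treatment text stands on every sample but names A375p alone, so its times apply to A2058 only if it is shared. The other 6 arrays, A375 vemurafenib and A2058 vemurafenib, entered the fit and gave a companion comparison. Each line is a single cell line, so nothing here separates a feature of melanoma from a feature of that line. The labels do not say that replicates came from separate cultures, so p-values measure only the spread between these arrays. No hybridisation batch is given, and the line and any batch in which it was processed cannot be told apart.

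Melanoma cells descend from pigment cells, whose identity is set by MITF, SOX10, PAX3 and other transcription factors that switch on the enzymes and structural proteins of the melanosome. Melanoma lines vary in how much of this program they keep, and lines that have lost it often express growth factor receptors, secreted matrix proteins and inflammatory genes. NF-kB, a family of dimeric transcription factors held inactive by inhibitor proteins, switches on chemokines, cytokines and adhesion molecules together with its own inhibitors.

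Levels are the log2 values deposited by the authors, so a difference of 1 is a 2-fold difference, and every difference is A375 minus A2058 ± SE of the limma fit. The 18404 genes are represented by 1 probe set each, and their means over the 12 arrays had a lower quartile of 4.81, a median of 6.06 and an upper quartile of 7.87. Arrays of one line correlated at r = 0.9986 to 0.9989 in A375 DMSO and 0.9978 to 0.9985 in A2058 DMSO across genes, and arrays of different lines at 0.9513 to 0.9536. The median SD of a gene was 0.0461 in A375 DMSO and 0.0591 in A2058 DMSO. No array copied another. Levels of different probe sets are not calibrated against each other, and differences of genes near the low end of the scale are understated.

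Both lines carried melanoma markers. Of 14 markers, 12 were measured, and 7 in A375 and 9 in A2058 lay above the upper quartile of gene means. SOX10, a neural crest transcription factor, averaged 9.53 in A375 and 9.21 in A2058, and the surface proteoglycan CSPG4 averaged 10.36 in A375 and 9.25 in A2058. GPNMB, another of the markers, averaged 10.43 in A375 and 11.18 in A2058. The melanosome markers TYR and MLANA were not shared in this way. TYR averaged 4.57 in A375 and 10.93 in A2058, and MLANA was low in both lines, at 4.44 in A375 and 4.75 in A2058.

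Lists of markers of other cell types were mostly at the low end. Of 17 blood and immune markers, 1 lay above the upper quartile in each line (CD68, which many cells express), and PTPRC, the common leukocyte antigen, averaged 4.17 in A375 and 4.15 in A2058. Of 12 epithelial markers, 1 (KRT18) lay above it in each line, while EPCAM averaged 4.53 in A375 and 4.55 in A2058. None of the 11 endothelial markers lay above it in either line, and PECAM1 averaged 4.71 in both lines. Of 13 fibroblast markers, 1 (PRRX1) lay above it in each line. The mean level over the fibroblast list was 5.18 to 5.23 in the A375 arrays and 5.60 to 5.64 in the A2058 arrays.

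An adjusted p under 0.05 (Benjamini-Hochberg, over all genes) was reached by 8541 genes, 46.4% of those tested. With that share, a p alone said little about a gene, so a gene is counted here as called when it also differed at least 2-fold. By that rule 615 genes were higher in A375 (3.34% of all genes) and 558 were lower (3.03%). The median difference over all genes was -0.0066. All 1173 called genes had every A375 array on one side of every A2058 array. A 2-fold difference at the small spread within each line nearly ensures this, so it adds no support. The share over all genes was not counted. Differences of at least 4-fold were found for 157 genes higher in A375 and 110 lower, and of at least 16-fold for 21 higher and 14 lower.

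**Figure D1:**
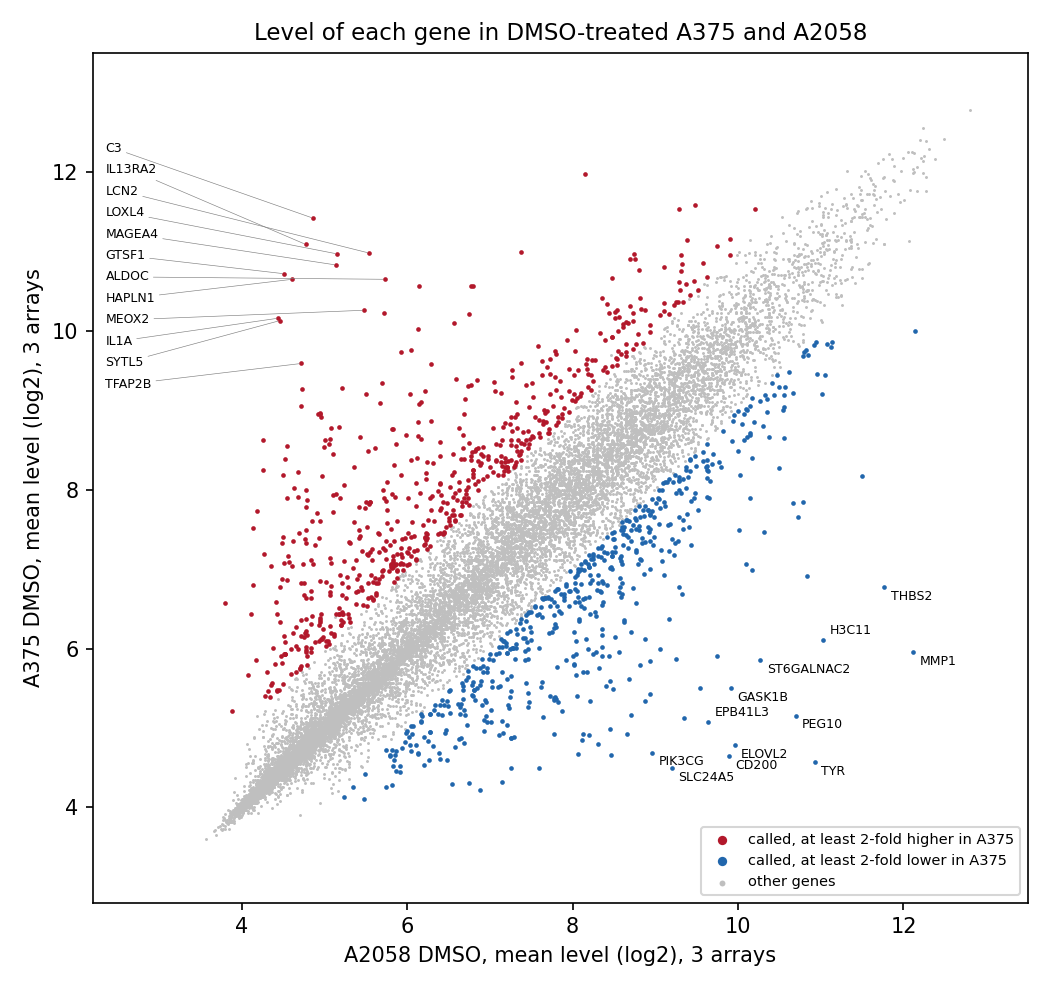
Mean log2 level of each gene in A2058 DMSO (horizontal axis) and A375 DMSO (vertical axis), 3 arrays each. Red points are the genes called at least 2-fold higher in A375 and blue points those called at least 2-fold lower; the 12 with the largest difference in each direction are named, C3 and IL13RA2 among those higher in A375 and TYR and MMP1 among those lower.

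The genes with the largest excess in A375 included secreted immune proteins, matrix proteins and germline genes. C3, the central protein of the complement cascade, had levels of 11.41, 11.40 and 11.44 in A375 and 4.82, 4.95 and 4.83 in A2058, a difference of 6.55 ± 0.048 (93.8-fold; adjusted p = 1.7e-16 from limma). IL13RA2, a decoy receptor for IL-13, had 11.09, 11.14 and 11.04 in A375 and 4.69, 4.89 and 4.72 in A2058, a difference of 6.32 ± 0.11. All 3 A375 arrays were bright for both genes and all 3 A2058 arrays lay at the low end of the scale. GTSF1, a germline factor of the piRNA pathway, differed by 6.21 (73.9-fold), SYTL5, a Rab27 effector of vesicle traffic, by 5.67 (51-fold), and ALDOC, a glycolytic aldolase, by 4.93 (30.4-fold). MEOX2, a homeobox factor of mesoderm and vessels, differed by 4.78 (27.4-fold).

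The genes with the largest deficit in A375 included a pigment enzyme, matrix genes and an imprinted gene. PEG10, a retrotransposon-derived imprinted gene, had 5.20, 5.16 and 5.09 in A375 and 10.73, 10.68 and 10.68 in A2058 (difference -5.55 ± 0.039, 46.8-fold lower). CD200, a surface protein that restrains myeloid cells, had 4.64, 4.64 and 4.63 in A375 and 9.96, 9.82 and 9.90 in A2058 (difference -5.26). No array of one line reached the range of the other for either gene, which the rule for naming genes required. ELOVL2, which elongates polyunsaturated fatty acids, differed by -5.18, EPB41L3, a membrane skeleton adaptor, by -4.57, ST6GALNAC2, a sialyltransferase, by -4.41, and GASK1B, a Golgi-associated kinase family protein, by -4.42. The histone gene H3C11 differed by -4.93, and since histone genes are near-identical copies, its probe set may read several of them.

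The transcription factors of the melanocyte lineage did not move as a block. Of 25 measured, 5 were called higher in A375 and 4 lower, against 3.34% and 3.03% of all genes, and their median difference was 0.014. MITF, the central regulator of pigment cell identity, had 8.29, 8.40 and 8.34 in A375 and 9.68, 9.80 and 9.84 in A2058 (difference -1.43 ± 0.047, 2.69-fold lower; adjusted p = 8.16e-11 from limma). MITF was thus lower in A375 on every array, though its A375 levels lay above the upper quartile of gene means. In bulk RNA, fewer cells with a transcript and less of it per cell cannot be told apart.

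SOX10 had 9.48, 9.49 and 9.60 in A375 and 9.17, 9.23 and 9.23 in A2058, a difference of 0.32 ± 0.044 that passed the p threshold (4.77e-05) but not 2-fold. PAX3, which acts upstream of MITF, differed by -0.59 ± 0.055, also under 2-fold. The AP-2 family showed opposite members. TFAP2A, the family member best known in melanocytes, had 5.72, 5.81 and 6.08 in A375 and 9.26, 9.16 and 9.34 in A2058 (difference -3.38 ± 0.13). TFAP2B had 9.62, 9.61 and 9.55 in A375 and 5.01, 4.52 and 4.62 in A2058 (difference 4.87 ± 0.11), and TFAP2C 9.27, 9.32 and 9.30 in A375 and 6.73, 6.71 and 6.75 in A2058 (difference 2.57 ± 0.056). A375 was thus high for TFAP2B and TFAP2C, and A2058 for TFAP2A. SOX5, which can repress pigment genes, was higher in A375 by 2.06 ± 0.062, SOX11 was higher by 1.62, and SOX6 was lower by a difference of -1.02. IRF4, which cooperates with MITF at the tyrosinase gene, differed by -1.31 ± 0.10.

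Pigment genes were lower in A375. Of 37 measured genes of pigment cells and MITF targets, 14 were called lower in A375 and 1 higher, with a median difference of -0.74; 12 of the 37 lay above the upper quartile in A2058 and 8 in A375. TYR, tyrosinase, the enzyme that starts melanin synthesis, had 4.61, 4.60 and 4.49 in A375 and 11.09, 10.85 and 10.83 in A2058 (difference -6.36 ± 0.11, 82.1-fold lower; adjusted p = 1.89e-13 from limma). Its other probe set differed by -5.41. SLC24A5, a melanosomal cation exchanger, had 4.45, 4.44 and 4.58 in A375 and 9.15, 9.15 and 9.29 in A2058 (difference -4.71 ± 0.071). For both genes the A375 arrays lay below the lower quartile of gene means and the A2058 arrays above the upper quartile. The upstream sequences of these genes are shown because the list is defined by MITF, which binds M-box elements. They are the 250 bases before the RefSeq start site in GRCh38.p14, plus strand, with matches to the M-box letters TCATGTG, or to their reverse complement, in capitals.
TYR, chr11:89177625-89177874: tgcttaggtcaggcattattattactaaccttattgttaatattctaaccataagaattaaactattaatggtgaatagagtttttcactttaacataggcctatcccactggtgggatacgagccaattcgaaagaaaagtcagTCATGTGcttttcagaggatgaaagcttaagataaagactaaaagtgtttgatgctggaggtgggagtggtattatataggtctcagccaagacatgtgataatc
SLC24A5, chr15:48120740-48120989: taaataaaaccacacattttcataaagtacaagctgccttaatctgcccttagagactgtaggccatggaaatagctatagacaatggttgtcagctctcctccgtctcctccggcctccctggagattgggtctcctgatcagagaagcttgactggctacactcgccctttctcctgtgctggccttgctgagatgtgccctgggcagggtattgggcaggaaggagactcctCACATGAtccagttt

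The match begins at -105 in TYR and at -15 in SLC24A5, counted from the start site. TCATGTG on either strand was found in 370 of the 14212 measured genes with a promoter sequence (2.6%). Of the 14 pigment genes lower in A375, 10 had a sequence and 3 held the motif (SLC24A5, TYR and TYRP1). A match describes letters in this window and is not evidence of binding. The motif was chosen with the results known.

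PMEL, which forms the melanosome fibrils, had 5.03, 4.92 and 5.03 in A375 and 8.52, 8.40 and 8.43 in A2058 (difference -3.46 ± 0.055). TYRP1, a melanin enzyme related to tyrosinase, had 4.56, 5.01 and 5.17 in A375 and 6.10, 5.82 and 6.27 in A2058 (difference -1.15 ± 0.13, adjusted p = 1.02e-05 from limma). The TYRP1 arrays of A375 were spread more widely than those of most genes, but none reached the A2058 range. PPARGC1A, a mitochondrial coactivator and MITF target, differed by -2.66, and EDNRB, the endothelin receptor of melanoblasts, by -1.28. Called members below the rule for named genes, picked after their values were seen, were DAPK1 (difference -2.64), QPCT (-2.26), ASAH1, the acid ceramidase (-1.11), and 2 genes of melanosome transport, RAB27A (-1.12) and MYO5A (-1.03). MLANA, a melanosomal antigen, had 4.42, 4.45 and 4.45 in A375 and 4.68, 4.78 and 4.79 in A2058. Its difference of -0.31 passed the p threshold and stayed under 2-fold at low levels in both lines. The 1 member called higher was the myosin MYO1D (1.22).

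**Figure D2:**
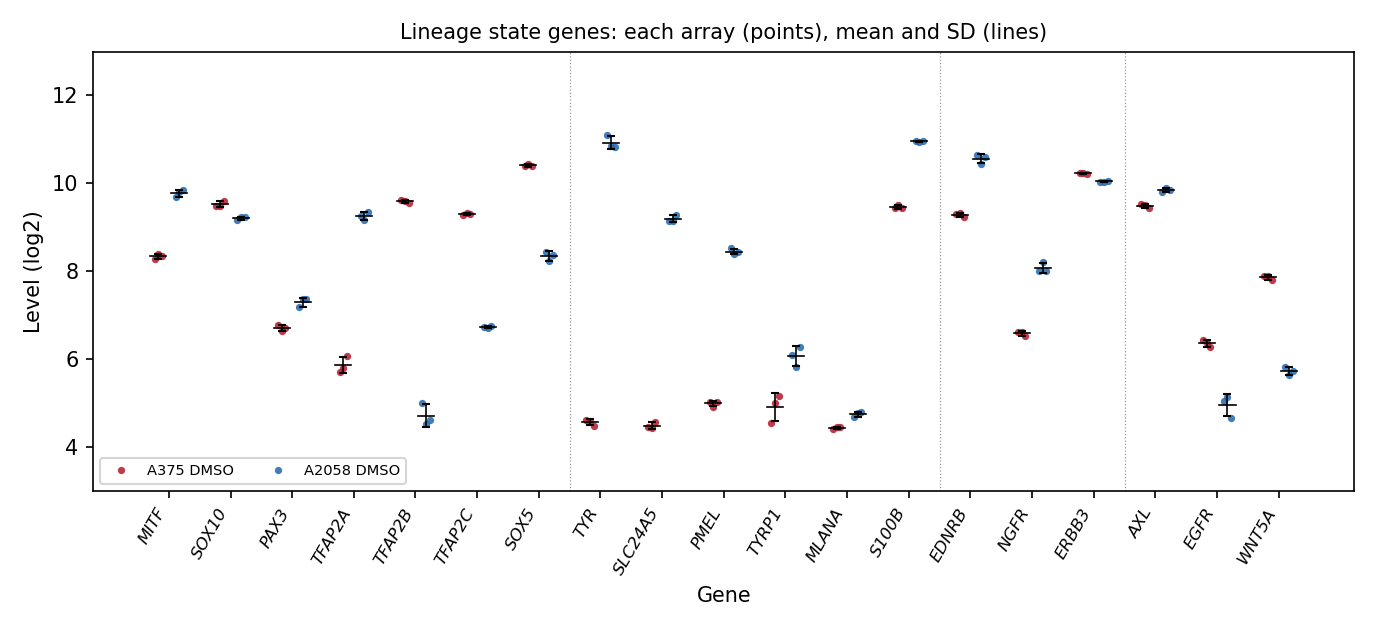
Log2 level of lineage state genes in A375 DMSO (red, left) and A2058 DMSO (blue, right); points are the 3 arrays, bars the mean and SD. From left to right, the panels hold transcription factors, pigment cell genes, receptors and genes of the undifferentiated state: TYR, SLC24A5 and PMEL are lower in A375, and TFAP2A and TFAP2B lie in opposite order in the lines.

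Neural crest and undifferentiated state genes were split between the lines. Of 20 neural crest and Schwann cell type genes, 3 were called higher in A375 and 3 lower (median difference -0.069). NGFR, a neurotrophin receptor of neural crest stem cells, had 6.63, 6.61 and 6.53 in A375 and 8.01, 8.21 and 8.01 in A2058 (difference -1.49 ± 0.060). NES, an intermediate filament protein of neural progenitors, differed by -1.55 and NCAM1, a neural adhesion molecule, by -1.73. Higher in A375 were SLITRK6 (1.96), L1CAM (1.36), another neural adhesion molecule, and RXRG (1.05), a retinoid receptor of neural crest cells. ERBB3, a neuregulin receptor, differed by 0.18 ± 0.035.

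Of 43 genes reported high in undifferentiated or invasive melanoma, 9 were called higher in A375 and 5 lower (median difference 0.12). The largest difference in the list was that of MMP1, lower in A375 (-6.16), and MMP14 (-1.51), SNAI2 (-1.51) and CCN2 (-1.27) were lower too. Of the 9 higher, TGFBI (4.51), INHBA (3.60), FST (3.35) and TNFRSF11B (3.23) differed most. WNT5A, a non-canonical WNT ligand, had 7.90, 7.89 and 7.80 in A375 and 5.83, 5.65 and 5.74 in A2058 (difference 2.13 ± 0.080). EGFR had 6.44, 6.37 and 6.27 in A375 and 5.06, 5.13 and 4.67 in A2058 (difference 1.41 ± 0.10). Both were higher in A375 on every array. AXL, a receptor kinase often used to mark the undifferentiated state, had 9.52, 9.50 and 9.43 in A375 and 9.80, 9.90 and 9.85 in A2058, a difference of -0.36 ± 0.045 that was under 2-fold, with high levels in both lines.

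The list of transcription factors of epithelial to mesenchymal transition and of cadherins gave 2 members higher and 4 lower of 28 (median difference 0.017). The 2 higher were the cadherin CDH12 and the protocadherin PCDH10 (1.04), so no transcription factor of the list was called higher. SNAI2, a repressor expressed in melanocytes, had 9.04, 8.99 and 9.09 in A375 and 10.52, 10.62 and 10.52 in A2058 (difference -1.51 ± 0.046). ZEB2 differed by -1.20, but its dimmer probe set differed by -0.04, so the probe sets disagree. ZEB1 differed by 0.18 ± 0.043. The neuronal cadherin CDH2 differed by -0.63 ± 0.043, while the epithelial cadherin CDH1 averaged 4.55 in A375 and 4.52 in A2058, with overlapping arrays. CDH12, a neuronal cadherin, was 10.4-fold higher in A375 (3.38 ± 0.055), and the protocadherins PCDH7 (-1.79) and PCDH18 (-1.58) were lower.

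Germline antigens and S100 proteins were higher in A375 where they were called, except for S100B. Of 21 cancer-testis antigens, 4 were called higher in A375 and 0 lower (median difference 0.026). By the adjusted p from limma alone, 7 were higher and 1 lower. MAGEA4 had 10.84, 10.81 and 10.83 in A375 and 5.17, 5.19 and 5.05 in A2058 (difference 5.69 ± 0.083), MAGEC2 differed by 3.70 and PAGE5 by 3.02. These families hold near-identical members whose probes can be shared, so the member is uncertain. Of 19 S100 proteins, 2 were higher (S100A3 by 3.42, S100A4 by 1.02) and 1 lower. That was S100B, a diagnostic marker of melanocytic tumours, which had 9.43, 9.51 and 9.44 in A375 and 10.97, 10.95 and 10.97 in A2058 (difference -1.5 ± 0.040).

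No component of the RAS, RAF, MEK and ERK cascade was called among 22 measured genes (0 higher, 0 lower). By the adjusted p alone, 8 were higher and 3 lower, with a median difference of 0.1. BRAF was not analysed here. Of 36 genes that ERK induces, including its feedback inhibitors, 6 were called higher in A375 and 2 lower (median difference 0.18).

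The classic ERK feedback genes differed in both directions. SPRY4, an inhibitor of receptor signalling, had 10.15, 10.16 and 10.19 in A375 and 8.52, 8.60 and 8.56 in A2058 (difference 1.61 ± 0.060). SPRY2 had 10.51, 10.58 and 10.44 in A375 and 10.33, 10.26 and 10.36 in A2058, and its difference of 0.19 ± 0.076 missed the threshold (adjusted p = 0.0573 from limma). DUSP6, a phosphatase that inactivates ERK, differed by 0.48 ± 0.055 and its relative DUSP4 by -0.76 ± 0.046. The ETS factors ETV4 (0.66) and ETV5 (-0.85) also lay on opposite sides. CCND1, cyclin D1, had 10.20, 10.15 and 10.14 in A375 and 9.97, 10.15 and 10.09 in A2058, and these arrays overlapped (difference 0.09 ± 0.057, adjusted p = 0.222 from limma). EGR1, an immediate early factor, was higher in A375 by 1.90 ± 0.065 and the neuropeptide precursor VGF by 2.94 ± 0.098. MYC had 6.93, 7.02 and 6.87 in A375 and 8.71, 9 and 8.86 in A2058 (difference -1.92 ± 0.077). FOSL1, an AP-1 subunit, differed by -0.30 ± 0.14, which missed the threshold (adjusted p = 0.0983 from limma).

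Receptor tyrosine kinases gave 4 members higher and 3 lower of 45 (median difference -0.016), and their ligands 1 higher and 3 lower of 43 (-0.081). Besides EGFR, the receptors higher in A375 were the VEGF receptor KDR (1.21), INSR (1.12) and IGF1R (1.04). EPHA4, an ephrin receptor, had 5.98, 5.99 and 6.04 in A375 and 8.15, 8.08 and 8.29 in A2058 (difference -2.17 ± 0.057), and the WNT5A receptor ROR1 differed by -1.68. DDR2, a collagen receptor, differed by -1.02 and by -1.56 on its other probe set. MET differed by 0.21 ± 0.063 and PDGFRB by 0.84 ± 0.054, and KIT was low in both lines, averaging 4.39 in A375 and 4.58 in A2058. Among ligands, PDGFD (-3.03), EFNB2 (-2.26) and ANGPT1 (-1.62) were lower in A375.

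Of 26 genes of PI3K signalling, 3 were called higher and 1 lower (median difference -0.011). PIK3CG, a catalytic subunit typical of leukocytes, had 4.74, 4.61 and 4.71 in A375 and 8.98, 8.88 and 9.01 in A2058 (difference -4.27 ± 0.054, 19.3-fold lower). DEPTOR, an inhibitor of mTOR, had 7.28, 7.02 and 6.94 in A375 and 5.13, 4.93 and 5.17 in A2058 (difference 2 ± 0.095).

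In the TGF-beta and BMP pathway, 6 genes were called higher in A375 and 7 lower of 51 (median difference 0.00022). The ligand subunit INHBA had 10.96, 10.98 and 11.01 in A375 and 7.46, 7.32 and 7.36 in A2058 (difference 3.60 ± 0.063), and FST, which binds and blocks activins, had 8.51, 8.56 and 8.29 in A375 and 5.10, 5.23 and 4.97 in A2058 (difference 3.35 ± 0.087). The ligand and its inhibitor were thus both higher in A375. CHRDL1, a BMP antagonist, was higher by 2.94. GDF15, a stress-induced member of the family, had 5.99, 5.97 and 6.04 in A375 and 9.06, 9.13 and 8.95 in A2058 (difference -3.05 ± 0.055), the BMP target ID2 differed by -2.43 and the co-receptor TGFBR3 by -2.07.

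WNT pathway genes gave 2 higher and 2 lower of 58 (median difference 0.0056), 6.9% of the list against 6.37% of all genes. DKK1, a secreted WNT inhibitor, had 6.52, 6.27 and 6.33 in A375 and 9.22, 9.11 and 9.17 in A2058 (difference -2.8 ± 0.089). TCF7L2, a factor that acts with beta-catenin, differed by 1.44. YAP and TEAD targets gave 0 higher and 1 lower of 32 (median difference -0.04), 3.12% of the list. The 1 was CCN2 (-1.27), and by the adjusted p alone 10 were higher and 10 lower. NOTCH pathway genes gave 3 higher and 2 lower of 28 (0.009), with HEY1, a NOTCH target, at -2.63 and RBPJ, the DNA-binding partner of NOTCH, at 1.34. The list of melanocyte receptors that couple to G proteins or bind neurotrophins, with their regulators, gave 1 higher and 3 lower of 21 (0.0019). That is 19% of the list against 6.37% of all genes in either direction. RGS16, the 1 higher, and RGS5, among the lower, are regulators of G protein signalling and not receptors. The receptors called lower were EDNRB and NGFR, and no receptor of the list was called higher.

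Of 22 cyclins, kinases and inhibitors of G1, 1 was called higher and 4 lower (median difference -0.21). CDKN2B, an inhibitor of CDK4 and CDK6, had 5.73, 5.80 and 5.76 in A375 and 8.30, 8.17 and 8.49 in A2058 (difference -2.56 ± 0.093), and its neighbour CDKN2A differed by -1.02 ± 0.12. CCNE2, a cyclin E, differed by -2.05 and CDK2, its partner kinase, by -1.53. RB1, the retinoblastoma protein, was higher in A375, with 9.77, 9.76 and 9.72 in A375 and 8, 8.02 and 8.07 in A2058 (difference 1.72 ± 0.074). The proliferation marker MKI67 differed by -0.61 ± 0.059. Of 32 targets of p53, 2 were higher and 2 lower (median difference 0.18), PMAIP1, a pro-apoptotic BH3 protein, among the lower (-1.92) and DDB2, a DNA damage sensor, among the higher (1.23).

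**Figure D3:**
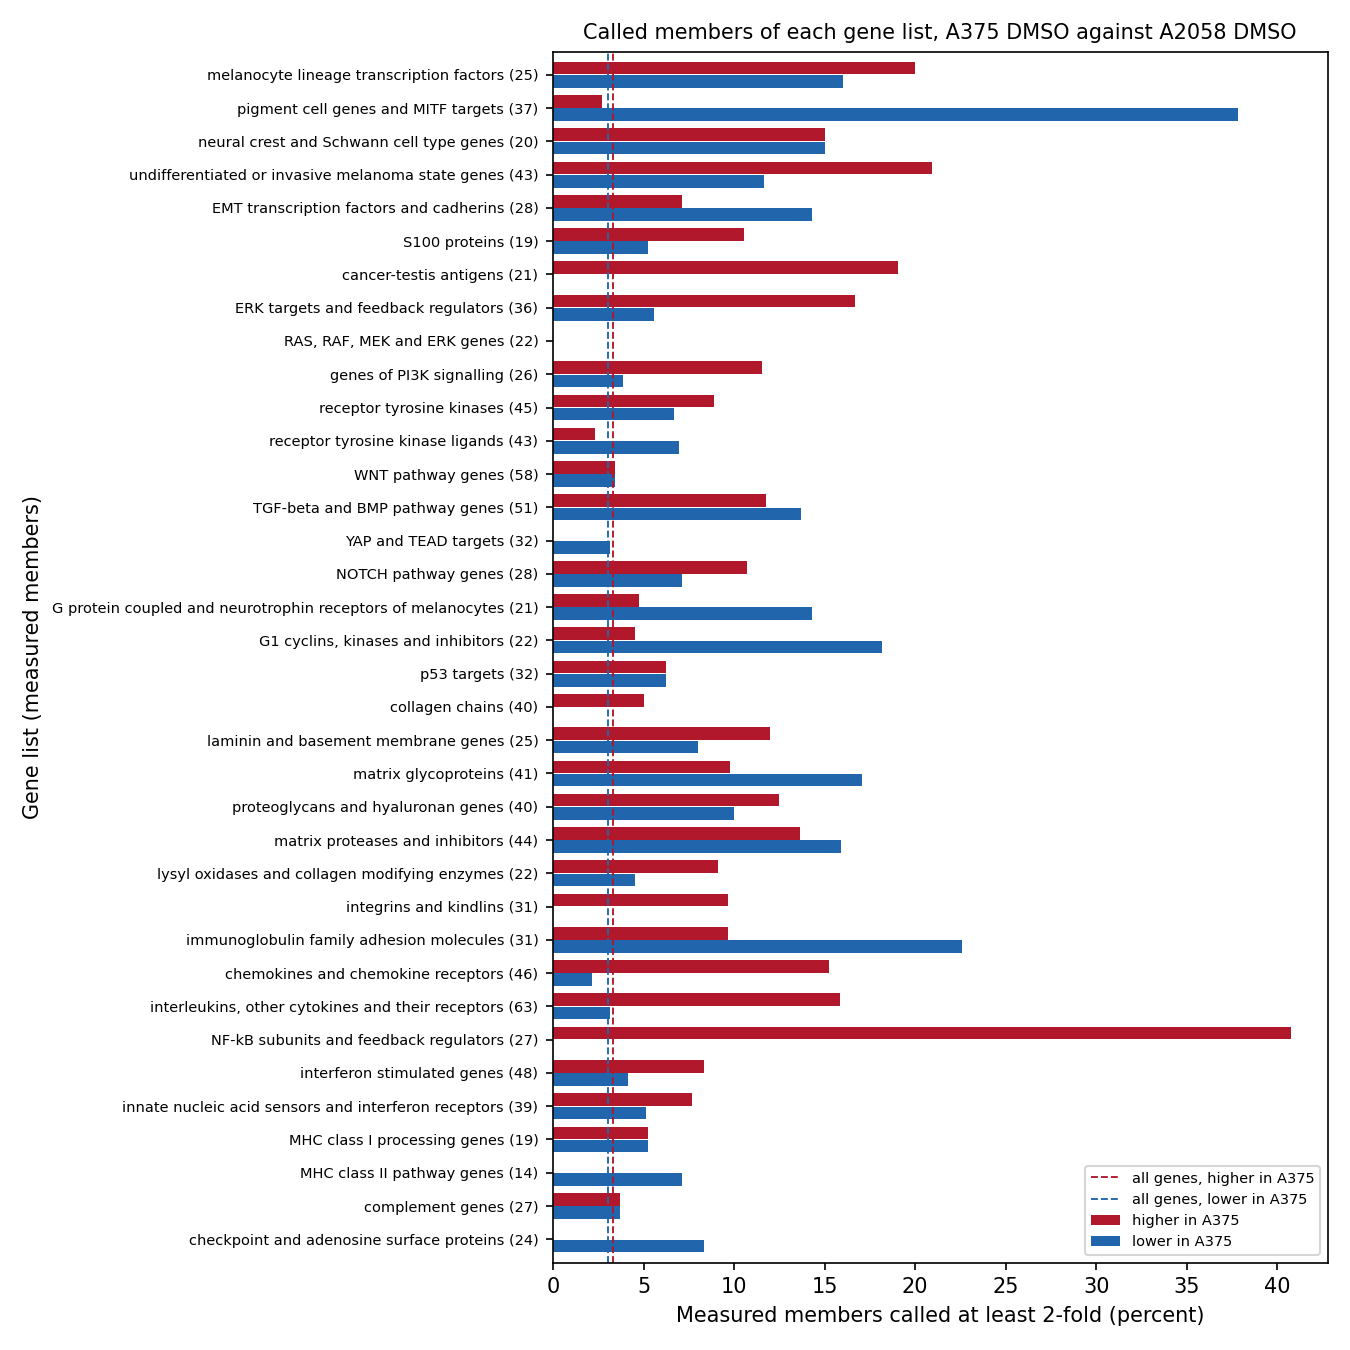
Share of the measured members of each gene list called at least 2-fold higher (red) or lower (blue) in A375 DMSO than in A2058 DMSO, with the number measured in brackets. Dashed lines are the shares over all genes, 3.34% higher and 3.03% lower; the longest red bar is the NF-kB list (11 of 27 members) and the longest blue bar the pigment list (14 of 37).

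The matrix lists held calls in both directions, except for the collagens and integrins, which had few calls in all. In either direction 5% of collagens and 9.68% of integrins and kindlins were called, against 6.37% of all genes. Of 44 matrix proteases and inhibitors, 6 were called higher in A375 and 7 lower (median difference 0.019). MMP1, interstitial collagenase, had 5.97, 6.02 and 5.87 in A375 and 12.18, 12 and 12.17 in A2058 (difference -6.16 ± 0.080, 71.7-fold lower; adjusted p = 2.33e-14 from limma). The A2058 arrays thus stood near the top of the scale and the A375 arrays near the median of gene means. MMP14, a membrane-bound collagenase, had 8.22, 8.39 and 8.26 in A375 and 9.69, 9.83 and 9.87 in A2058 (difference -1.51 ± 0.068). MMP15 (-2.50), the neutrophil collagenase MMP8 (-2.23) and, chosen after its value was seen, the inhibitor TIMP2 (-1.37) were also lower. MMP9, gelatinase B, was higher, with 7.01, 7.08 and 6.98 in A375 and 5.43, 5.31 and 5.28 in A2058 (difference 1.68 ± 0.079). The protease inhibitors A2M (3.18) and SERPINF1 (2.8) and the aggrecanase relative ADAMTS9 (2.02) were higher too.

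Of 41 matrix glycoproteins, 4 were called higher and 7 lower (median difference -0.051). THBS2, a thrombospondin that binds growth factors and proteases, had 6.79, 6.89 and 6.65 in A375 and 11.72, 11.76 and 11.82 in A2058 (difference -4.99 ± 0.057, 31.9-fold lower). SPP1, osteopontin, had 6.95, 6.97 and 6.82 in A375 and 10.88, 10.73 and 10.88 in A2058 (difference -3.92 ± 0.056). TGFBI, a TGF-beta induced integrin ligand, had 10.14, 10.25 and 10.29 in A375 and 5.67, 5.68 and 5.81 in A2058 (difference 4.51 ± 0.074). The A375 arrays were thus below the A2058 arrays for THBS2 and SPP1 and above them for TGFBI. Fibronectin, FN1, differed by -0.72 ± 0.044, tenascin TNC by 0.41 ± 0.043 and SPARC by -0.12 ± 0.038 (adjusted p = 0.0172 from limma), all under 2-fold at high levels in both lines.

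Among 40 proteoglycan and hyaluronan genes, 5 were higher and 4 lower (median difference 0.017). HAPLN1, which links hyaluronan to proteoglycans, had 10.65, 10.59 and 10.70 in A375 and 4.59, 4.66 and 4.59 in A2058 (difference 6.03 ± 0.068, 65.4-fold higher; adjusted p = 7.42e-15 from limma). VCAN, versican, a large proteoglycan that binds hyaluronan, had 6.64, 6.50 and 6.56 in A375 and 8.79, 8.82 and 8.69 in A2058 (difference -2.19 ± 0.048). HAS2, which synthesises hyaluronan, differed by -1.94 and CEMIP, which degrades it, by 1.73. SPOCK1 (3.57) and biglycan, BGN (2.12), were higher and the syndecan SDC2 (-1.83) lower.

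LUM, lumican, had 4.14, 4.32 and 4.2 in A375 and 6.92, 6.70 and 7.04 in A2058 (difference -2.67 ± 0.11). LUM and FAP (-2.45) were the 2 of 13 fibroblast markers that were called, while DCN averaged 4.26 in A375 and 4.35 in A2058 and COL1A2 5.19 in A375 and 5.18 in A2058. The part of other cells in the matrix differences was not tested.

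Of 40 collagen chains, 2 were called higher (COL6A1 by 1.62, COL5A2 by 1.44) and 0 lower, with a median difference of -0.026. By the adjusted p from limma alone, 8 were higher and 4 lower. The median difference of the 40 chains without regard to sign was 0.076, against 0.137 over all genes. Among 22 lysyl oxidases and collagen modifying enzymes, 2 were higher and 1 lower (-0.13). LOXL4, a collagen cross-linking oxidase, had 10.99, 10.98 and 10.95 in A375 and 5.15, 5.23 and 5.06 in A2058 (difference 5.83 ± 0.052, 56.7-fold higher). PCOLCE, an enhancer of procollagen cleavage, was higher by 1.97, and SERPINH1, the collagen chaperone, differed by -1.32. In 25 laminin and basement membrane genes, 3 were higher and 2 lower (0.034). LAMA1 had 4.88, 4.86 and 5 in A375 and 8.21, 8.16 and 8.24 in A2058 (difference -3.29 ± 0.060), the peroxidase PXDN, which cross-links collagen IV, differed by -3.07 and the secreted TINAGL1 by 3.78.

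Integrins and kindlins gave 3 higher and 0 lower of 31 (median difference 0.05). By the adjusted p from limma alone, 11 were higher and 6 lower. ITGA5, the fibronectin receptor subunit, had 10.90, 10.93 and 10.89 in A375 and 8.76, 8.74 and 8.75 in A2058 (difference 2.15 ± 0.041). FERMT1, an epithelial kindlin that activates integrins, had 9.09, 9.03 and 9.04 in A375 and 4.76, 4.72 and 4.68 in A2058 (difference 4.33 ± 0.048), and ITGA9 was higher by 1.99. ITGB3, which marks progression of melanoma, differed by 0.75 ± 0.036 at high levels in both lines, and ITGA3 by 0.19. Immunoglobulin family adhesion molecules gave 3 higher and 7 lower of 31 (-0.011). JAM3, a junctional molecule, was 16.4-fold higher (4.03 ± 0.065), and CHL1 (-2.39) and NECTIN3 (-1.76) were lower.

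**Figure D4:**
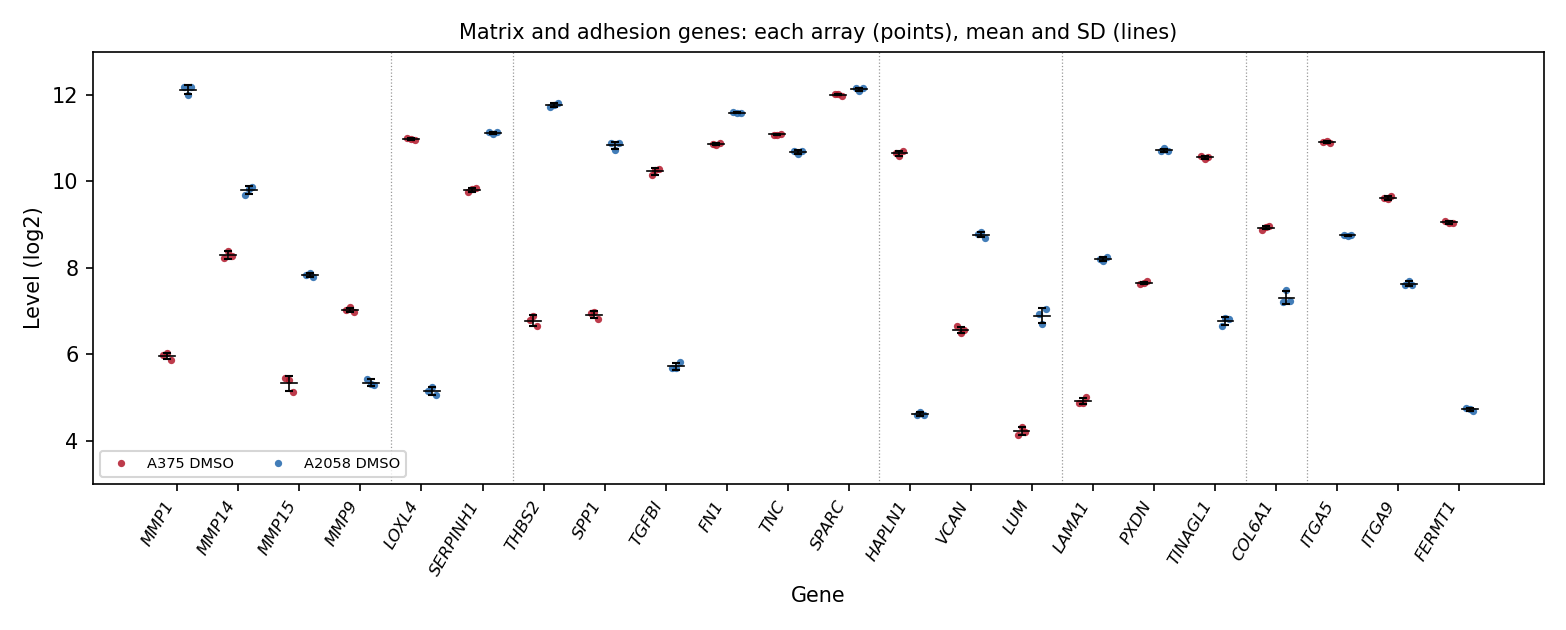
Log2 level of matrix and adhesion genes in A375 DMSO (red, left) and A2058 DMSO (blue, right); points are the 3 arrays, bars the mean and SD. MMP1, THBS2 and SPP1 are lower in A375, LOXL4, TGFBI, HAPLN1 and FERMT1 are higher, and FN1, TNC and SPARC are high in both lines.

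NF-kB genes were higher in A375. Of 27 measured subunits, inhibitors and feedback targets, 11 were called higher in A375 and 0 lower, against 3.34% and 3.03% of all genes, with a median difference of 0.6. By the adjusted p from limma alone, 18 were higher, 0 lower and 9 missed the threshold. NFKB2, the subunit of the non-canonical pathway, had 9.32, 9.29 and 9.35 in A375 and 6.80, 6.71 and 6.79 in A2058 (difference 2.55 ± 0.048, 5.87-fold higher; adjusted p = 3.96e-13 from limma). TNFAIP3, a deubiquitinase that shuts the pathway off, had 8.69, 8.60 and 8.63 in A375 and 6.17, 6.15 and 6.21 in A2058 (difference 2.47 ± 0.054). TRAF1, an adaptor of TNF receptors, had 8.22, 8.04 and 8.24 in A375 and 4.92, 4.97 and 5.02 in A2058 (difference 3.20 ± 0.10). In each of these genes the lowest A375 array exceeded the highest A2058 array by more than the range within a line.

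The remaining called members, named after their values were seen, were RELB (1.29) and REL (1.06), which are subunits, the inhibitors NFKBIA (1.70) and NFKBIZ (1.68), and the targets or regulators SOD2 (2.10), TNFAIP2 (2.01) and TNIP1 (1.03). The subunits NFKB1 (0.42) and RELA (0.48) passed the p threshold under 2-fold. The kinases of the pathway showed less. CHUK (0.12, adjusted p = 0.34) and IKBKB (-0.02, adjusted p = 0.866) missed the limma threshold.

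ICAM1, the leukocyte adhesion ligand that NF-kB induces, had 11.54, 11.51 and 11.54 in A375 and 9.28, 9.29 and 9.26 in A2058 (difference 2.25 ± 0.043). Of 46 chemokines and receptors, 7 were called higher in A375 and 1 lower (median difference 0.015); 31 missed the p threshold, and 6 of the 46 in A375 and 4 in A2058 lay above the upper quartile of gene means. CCL2, which attracts monocytes, had 10.56, 10.59 and 10.53 in A375 and 6.18, 6.13 and 6.10 in A2058 (difference 4.42 ± 0.085, 21.5-fold higher). CXCL8, interleukin 8, which attracts neutrophils, had 11.04, 11.15 and 11.23 in A375 and 9.38, 9.35 and 9.42 in A2058 (difference 1.76 ± 0.074). CCL2 was near the median of gene means in A2058, whereas CXCL8 was above the upper quartile in both lines.

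CXCL10, an attractant of T cells, had 8.55, 8.53 and 8.56 in A375 and 4.76, 4.39 and 4.52 in A2058 (difference 3.99 ± 0.094). CCL20 differed by 3.61 and CXCL1, a relative of CXCL8, by 1.63 ± 0.052. CXCL2 (1.51) and CCL5 (1.49), named after their values were seen, complete the 7. The 1 lower was CXCL14, a chemokine of normal skin, which had 5.68, 5.79 and 5.97 in A375 and 8.01, 8.23 and 7.84 in A2058 (difference -2.21 ± 0.092).

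Upstream sequences of ICAM1, CXCL8 and CXCL1 are shown because NF-kB sites lie in their promoters. They are the 250 bases before the RefSeq start site in GRCh38.p14, plus strand, with matches to GGAANTTCC, which is its own reverse complement, in capitals.
ICAM1, chr19:10270870-10271119: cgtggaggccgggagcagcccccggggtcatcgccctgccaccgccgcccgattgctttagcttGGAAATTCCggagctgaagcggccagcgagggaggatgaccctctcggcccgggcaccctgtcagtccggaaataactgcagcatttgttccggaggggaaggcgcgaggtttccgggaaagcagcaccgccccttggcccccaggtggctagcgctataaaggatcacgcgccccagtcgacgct
CXCL8, chr4:73740319-73740568: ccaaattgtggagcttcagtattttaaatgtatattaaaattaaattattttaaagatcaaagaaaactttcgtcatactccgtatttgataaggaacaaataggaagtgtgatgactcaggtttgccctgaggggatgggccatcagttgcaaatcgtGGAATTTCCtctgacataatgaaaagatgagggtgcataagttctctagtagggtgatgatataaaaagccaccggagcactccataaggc
CXCL1, chr4:73869143-73869392: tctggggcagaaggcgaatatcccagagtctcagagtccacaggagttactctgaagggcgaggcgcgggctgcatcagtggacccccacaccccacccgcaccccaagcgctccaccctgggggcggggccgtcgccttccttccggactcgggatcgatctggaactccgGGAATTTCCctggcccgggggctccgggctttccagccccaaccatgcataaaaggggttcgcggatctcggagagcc

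The matches begin at -186 in ICAM1, -91 in CXCL8 and -78 in CXCL1. GGAANTTCC was found in 158 of 14212 measured genes with a promoter sequence (1.11%). Of the 18 genes of the NF-kB and chemokine lists called higher in A375, 15 had a sequence and 8 held the motif (CXCL1, CXCL10, CXCL2, CXCL8, ICAM1, NFKBIA, NFKBIZ and REL). The motif was chosen with the results known, and a match describes the letters alone.

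Interleukins, other cytokines and their receptors gave 10 members higher and 2 lower of 63 (median difference 0.14). IL1A, an alarmin of the interleukin 1 family, had 10.15, 10.25 and 10.10 in A375 and 4.36, 4.49 and 4.47 in A2058 (difference 5.72 ± 0.15, 52.8-fold higher). Its relative IL1B had 6.57, 6.50 and 6.43 in A375 and 5.79, 5.94 and 5.99 in A2058, under 2-fold (0.59 ± 0.062). IL6 was low in both lines, averaging 4.36 in A375 and 4.74 in A2058. IL24 (3.40), the IL-6 family ligand LIF (2.72) and its receptor LIFR (3.55) were higher, so ligand and receptor differed in the same direction. PTGS2, the inducible cyclooxygenase, had 8.90, 8.85 and 8.95 in A375 and 7.83, 7.87 and 7.91 in A2058 (difference 1.03 ± 0.044), and PTGES, which acts after it in prostaglandin E2 synthesis and was picked after its value was seen, was higher by 2.94. TNFRSF11B, osteoprotegerin, was higher by 3.23, and TNFRSF19 (-1.20) and TNFSF13B (-1.08) were lower. LCN2, a siderophore-binding protein of innate defence, had 10.97, 10.98 and 11.01 in A375 and 5.65, 5.68 and 5.29 in A2058 (difference 5.44 ± 0.15).

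**Figure D5:**
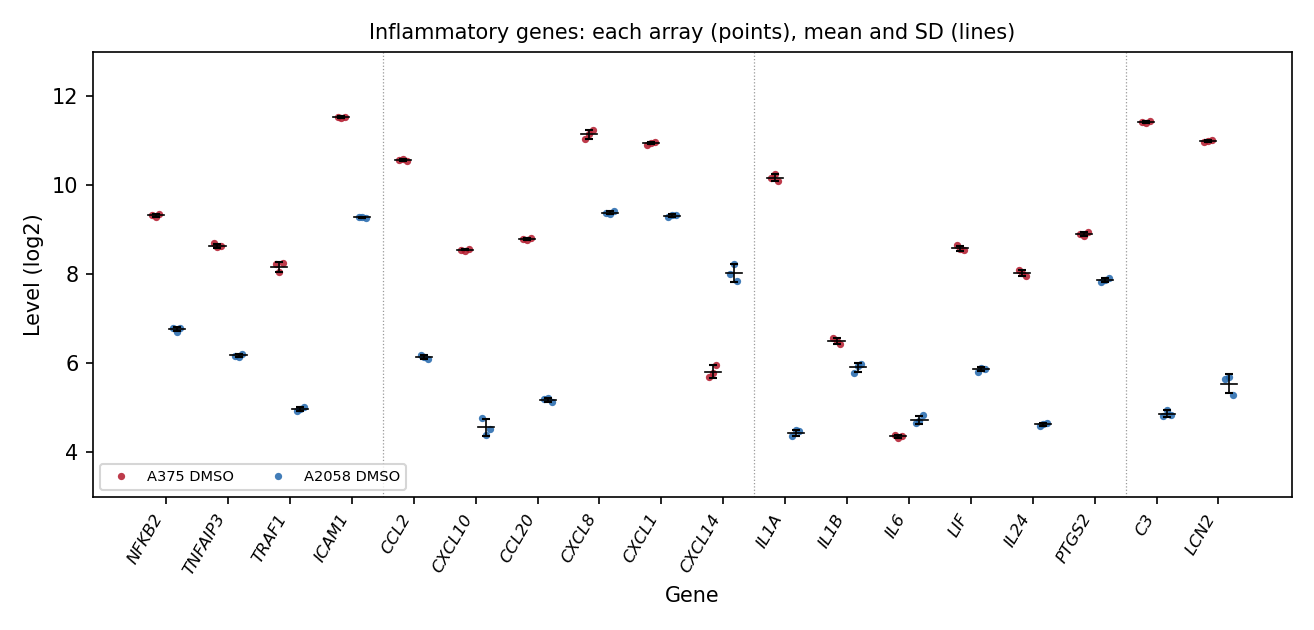
Log2 level of inflammatory genes in A375 DMSO (red, left) and A2058 DMSO (blue, right); points are the 3 arrays, bars the mean and SD. NF-kB genes, CCL2, CXCL10, CCL20, IL1A, C3 and LCN2 are higher in A375, CXCL14 is lower, and IL6 is low in both lines.

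Interferon stimulated genes did not share the direction of the NF-kB list. Of 48, 4 were called higher in A375 and 2 lower (median difference 0.034). IFIT1, a strongly interferon-induced gene, had 4.64, 4.65 and 4.56 in A375 and 4.59, 4.54 and 4.76 in A2058, with overlapping arrays at the low end (difference -0.01 ± 0.057, adjusted p = 0.889 from limma). IFITM1 (2.06), GBP2 (1.65), IFI30 (1.49) and OAS3 (1.16) were higher, and PLSCR1 (-1.41) and DDX60L (-1.05) lower. Nucleic acid sensors and interferon receptors gave 3 higher and 2 lower of 39 (0.12). AIM2, a sensor of cytosolic DNA, had 7.19, 7.08 and 7.01 in A375 and 4.70, 4.40 and 4.60 in A2058 (difference 2.53 ± 0.087). CGAS, the DNA sensor upstream of STING, had 4.32, 4.27 and 4.28 in A375 and 6.43, 6.61 and 6.58 in A2058 (difference -2.25 ± 0.067). The DNA sensors thus lay on opposite sides.

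Of 19 genes of MHC class I processing, 1 was called higher and 1 lower (median difference -0.19). That is 10.5% of the list against 6.37% of all genes in either direction. By the adjusted p from limma alone, 3 of the 19 were higher and 10 lower. The called genes were the peptide-trimming peptidases ERAP1 (1.11 ± 0.040) and ERAP2. ERAP2 had 4.86, 4.87 and 4.84 in A375 and 8.09, 8 and 8.25 in A2058 (difference -3.26 ± 0.11). B2M, the invariant chain of class I, had 9.82, 9.83 and 9.82 in A375 and 9.83, 9.76 and 9.82 in A2058, with overlapping arrays (adjusted p = 0.79 from limma). Of 14 class II genes, 0 were higher and 1 lower (-0.053), 7.14% of the list. That was HLA-DQB1 (-1.10), whose polymorphic sequence makes a probe comparison between lines uncertain. By the adjusted p from limma alone, 2 class II genes were higher and 6 lower. CD74, HLA-DRA and HLA-DRB1 were not measured. Of 24 checkpoint and adenosine surface proteins, 0 were higher and 2 lower (8.33% of the list), CD200 and CTLA4 (-1.61). By the adjusted p from limma alone, 5 of the 24 were higher and 4 lower. CD274, the PD-1 ligand, differed by 0.36 ± 0.077 at low levels and NT5E, which makes adenosine, by 0.43 ± 0.050. Complement genes gave 1 higher, C3, and 1 lower, C5 (-1.08), of 27 (0.018), which is 7.41% of the list against 6.37% of all genes.

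The lines were also compared under vemurafenib, where the group means come from the other 6 arrays. Both comparisons share the spread estimated over 12 arrays and the choice of probe sets. There 1330 genes were called (7.23%), 635 higher in A375 and 695 lower. Of the genes called between the lines under DMSO, 622 were also called under vemurafenib in the same direction, which is 53% of the DMSO calls and 46.8% of the vemurafenib calls, and 13 were called in the opposite direction. The difference between the lines itself differed with the drug for 5434 genes (29.5%; interaction in the same limma fit), a comparison that shares the DMSO arrays.

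Some lineage differences under DMSO were found again under vemurafenib and others were not. The MITF difference was -1.43 under vemurafenib and -1.43 under DMSO, that of TYR -6.81 under vemurafenib and -6.36 under DMSO, and that of TFAP2B 4.25 under vemurafenib and 4.87 under DMSO. NGFR differed by 1.62 under vemurafenib and -1.49 under DMSO, and MYO1D by -1.83 under vemurafenib and 1.22 under DMSO, so both changed direction. SOX11 (0.58), SOX6 (-0.48), RXRG (0.41) and S100B (-0.58) were under 2-fold under vemurafenib. MLANA differed by -2.54 under vemurafenib and -0.31 under DMSO. Of the NF-kB list, 11 of 27 were called higher in A375 under vemurafenib too. The interferon list had 37 of 48 called higher in A375 under vemurafenib and 4 under DMSO, with IFIT1 at 5.71 under vemurafenib and -0.01 under DMSO. Among matrix genes, MMP1 differed by -1.70 under vemurafenib and -6.16 under DMSO, LOXL4 by 1.06 under vemurafenib and 5.83 under DMSO, and THBS2 by -4.27 under vemurafenib and -4.99 under DMSO.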

How the data were processed

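Affymetrix gene arrays were hybridised with total RNA that had been amplified by an Ambion kit, per the labels' protocols. The authors deposited log2 expression values for 32321 probe sets and 12 arrays. The submitters' processing notes name R 3.0.1 and affy. How background was corrected and probes were summarised is not given in the sources used here. The range of the values (3.24 to 13.08) gave the log2 scale, and no further scaling was applied. Array intensities carry no read depth, so precision is limited by how many arrays there are.

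In the platform annotation, 19158 probe sets have a single symbol and were used, while 1388 with several and 11775 without any were left out. RefSeq (GRCh38.p14) matched 19128 by Entrez number and supplied current symbols and promoter sequences. The probe set with the highest mean over 12 arrays was kept for each of 637 genes with several, leaving 18404 genes. XIST and Y-linked genes were tested but are not reported.

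A linear model of the 12 arrays, with a mean for each of 4 groups and no replicate block, was fitted in limma 3.58.1 under R 4.3.3 (8 residual and 3.98 prior degrees of freedom; two-sided; Benjamini-Hochberg over all genes; adjusted p under 0.05). A call also needs a difference of at least 2-fold. The steps were tested on simulated data. Named genes are the 12 largest called differences in each direction and up to 4 called members per direction of each of 40 lists. Both required that the arrays of the lines did not overlap. A set of lineage, signalling, matrix and inflammatory genes is named whatever their result. Other genes are named where the text says they were chosen after their values were seen. NFKB1, RELA, CHUK, IKBKB, the markers of other cell types, CSPG4 and GPNMB were likewise chosen so. The arrays, lists and named genes were chosen with earlier results of these data known. Of 1364 list entries, 1243 were measured. Alternatives tried were a fit of the 6 DMSO arrays, a replicate block, averaged probe sets, a filter on dim genes, repeated quantile normalization, array weights, a trended robust variance and leaving out each array.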

Additional observations from a re-analysis of the deposited data

Results flagged for a closer look

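Genes called between the lines in opposite directions under DMSO and under vemurafenib (A375 minus A2058, log2) numbered 13, of which 6 are among the named genes. A passed test of the change in the limma fit was part of how these 6 were picked. Opposite 2-fold calls also nearly ensure that it passes, so the adjusted p-values below add no support. The value given last for each is the difference under DMSO minus that under vemurafenib. DKK1 differed by 1.58 under vemurafenib and -2.80 under DMSO, a change of -4.38 (adjusted p = 8.03e-11). DDX60L differed by 2.16 under vemurafenib and -1.05 under DMSO, a change of -3.21 (adjusted p = 1.25e-10). NGFR differed by 1.62 under vemurafenib and -1.49 under DMSO, a change of -3.11 (adjusted p = 4.85e-11). TNFSF13B differed by 1.95 under vemurafenib and -1.08 under DMSO, a change of -3.03 (adjusted p = 4.31e-09). PLSCR1 differed by 1.40 under vemurafenib and -1.41 under DMSO, a change of -2.81 (adjusted p = 8.24e-11). MYO1D differed by -1.83 under vemurafenib and 1.22 under DMSO, a change of 3.05 (adjusted p = 8.12e-09). The cause of these changes was not tested.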

How the results depend on the processing

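The results for the DMSO arrays were recomputed under 13 other settings (12 for genes that a filter on dim genes removes). No called difference of a named gene changed sign, and the signs of other called genes were not followed. The difference of IFIT1, which was not called, ranged over -0.06 to 0.05. Between the DMSO-treated lines, leaving out each array gave 7826 to 8064 genes past the p threshold (8541 as reported) and 1148 to 1198 called at least 2-fold (1173 as reported). With only the 6 DMSO arrays these were 9187 and 1174, and with array weights 9849 and 1179. Of 80 list counts, 27 changed in some setting, by at most 1 gene. Those that moved by over 1.5 times were MHC class I genes lower in A375, 2 with probe sets averaged, and, without dim genes, p53 targets higher (1), sensors lower (1), MHC class II lower (0) and complement lower (0). Leaving out an array gave 0 to 1 receptor tyrosine kinase ligands higher (0 without A375 DMSO replicate 2 or 3 or A2058 DMSO replicate 1) and 1 to 2 S100 proteins higher (1 without A375 DMSO replicate 2). It gave 1 to 2 members higher in the list of melanocyte receptors and their regulators (2 without A375 DMSO replicate 3 or A2058 DMSO replicate 3). It also gave 0 to 1 MHC class II genes lower (0 without A2058 DMSO replicate 1). Of 199 measured named genes, 194 kept their side of the adjusted p threshold in every setting run. The exceptions were FOSL1 (0.00119 with 6 arrays, 0.0431 with array weights), SPRY2 (0.00213 to 0.044 in 5 settings) and CCND1 (0.0173 with array weights), which passed there, each as the adjusted p from limma. SPARC missed it when quantile normalized again (0.0559) and without A375 DMSO replicate 3 (0.0613), A2058 DMSO replicate 1 (0.0623) or A2058 DMSO replicate 3 (0.0565), and MET without A375 DMSO replicate 2 (0.0512) or A2058 DMSO replicate 2 (0.0782). Of 168 named genes with a difference of at least 2-fold, 11 fell under 2-fold in some setting while still passing the p threshold. They were ZEB2 (-0.62) and IGF1R (0.98) with probe sets averaged, and CDKN2A (-0.9), TYRP1 (-0.97), DDR2 (-0.99), HLA-DQB1 (-0.98), HEY2 (0.95), MAGEA10 (0.95), EFNA1 (0.96), S100A4 (0.99) and IRF1 (0.99) at their smallest. The cause was not tested.

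Deviations from the group mean of same-numbered A375 DMSO and A2058 DMSO arrays correlated at -0.052, -0.028 and -0.141. Those of differently numbered arrays correlated at -0.101 to 0.143. With 3 arrays per line these values cannot decide whether replicate numbers pair the arrays. Pairing of DMSO with vemurafenib arrays was not examined in this way. With a replicate block, 8322 genes passed, 1174 were called 2-fold, 1331 under vemurafenib and 5160 for the interaction, and the block changed no call of a named gene and moved no list count by over 1.5 times. Limits are 3 arrays per line, no named batch, no detection p-value, and understated differences near the low end of the scale.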

Other observations

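Among the 4600 genes whose mean lay above the upper quartile, the median difference between the lines (A375 DMSO minus A2058 DMSO, log2) was -0.021, and it varied by chromosome. It was 0.38 for the 135 such genes on chromosome 20, of which 11 were called at least 2-fold higher in A375 and 0 lower, and 0.32 for the 268 on chromosome 19, of which 30 were higher and 1 lower. It was -0.42 for the 228 genes on chromosome 6, of which 2 were higher and 36 lower, -0.35 for the 92 on chromosome 13, of which 2 were higher and 11 lower, and -0.28 for the 165 on chromosome 8, of which 2 were higher and 16 lower. On chromosome 21 the median was -0.29 over 43 genes, yet 4 were called higher and 1 lower. It was also -0.28 on chromosome 7 (234 genes, 4 higher and 15 lower) and chromosome 14 (130 genes, 3 higher and 6 lower). Over all 18404 genes tested, 3.34% were called higher and 3.03% lower. The share among the 4600 was not computed, so the counts alone do not show which chromosomes stand out. These chromosomes were picked after their values were seen, and copy number was not measured.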
